A study of Mus musculus with 40 samples.

Results

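Expression of 8 chemokine genes was followed across cultured mouse cardiac fibroblasts. Cxcl9, Cxcl10, Cxcl11, Cxcl12, Cxcl13, Cxcl14 and Cxcl16 are genes of CXC chemokines of the interferon-inducible and homeostatic types. Cx3cl1 encodes the CX3C chemokine fractalkine. The annotation lists Cxcl11 as a polymorphic pseudogene. The 8 genes were chosen by name among the 55414 genes of the count table, with earlier results of these data known. All 8 were among the 25210 genes with at least 10 counts in total. The cells were isolated from hearts of adult C57BL/6J mice in which loxP sites flank exon 2 of Map3k7 (TAK1 fl/fl), the gene of TGFβ-activated kinase 1 (TAK1), so every group carried the floxed allele. They were transduced at passage 1 with an adenovirus that expresses Cre recombinase (Ad-CMV-iCre, TAK1 deleted) or β-galactosidase (Ad-CMV-LacZ, TAK1 intact) from the CMV promoter, which is not specific to fibroblasts, and no group without virus was analysed here. After serum starvation, cells received no ligand (CTRL), bFGF at 20 ng/ml, TGFβ at 10 ng/ml, IL-1β at 15 ng/ml or TNFα at 10 ng/ml for 24 h, which gave 10 groups of 4 libraries. The study describes the replicates as biological and from male mice, while the labels do not tie them to single animals or cultures, so p-values measure the spread between these libraries.

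Chemokines are small secreted proteins that steer leukocytes through G protein-coupled receptors. CXCL9, CXCL10 and CXCL11 are induced by interferons and inflammatory cytokines and attract activated T cells and natural killer cells through CXCR3. CXCL12 is made constitutively by stromal cells and retains progenitors and lymphocytes through CXCR4, with ACKR3 as a scavenging receptor, whereas CXCL13 organizes B cell follicles through CXCR5. CXCL16 and CX3CL1 are made as transmembrane proteins that ADAM10 and ADAM17 release from the cell surface, and they act on CXCR6 and CX3CR1. CXCL14 is expressed in many resting tissues.

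Libraries held between 25360947 and 66160732 counts on genes (median 36183962). Map3k7 lay between 122 and 160 CPM (counts relative to library size, with sizes scaled by TMM) in the 20 iCre libraries and between 144 and 251 CPM in the 20 LacZ libraries. It was lower in iCre than in LacZ cells in every treatment without overlap between groups, and the difference passed the test with TGFβ, IL-1β and TNFα, and with the replicate number as a block also under CTRL (adjusted p = 0.00393) and bFGF (adjusted p = 0.000409). Counts over the whole gene do not isolate the deleted exon. All 10 fibroblast markers, among them Pdgfra, Tcf21 and Col1a1, were detected in every library, with a summed level of 15351 to 69714 CPM. Of 8 macrophage and leukocyte markers, 7 were tested, Cd3e had 0 counts in all 40 libraries, and the summed level lay between 16.4 and 159 CPM. Libraries with replicate number 1 stood apart from numbers 2 to 4. A sum of 12 interferon-stimulated genes was lowest in replicate 1 in 5 of 5 LacZ groups and in 4 of 5 iCre groups. Libraries that shared a replicate number deviated together from their group means. Values from a fit with that number as a block are therefore given wherever the block changed a call on any of the 8 genes. A small adjusted p with the block can stand beside a pair that goes the other way, as for Cxcl10 with IL-1β in iCre cells. It therefore does not show that all pairs agreed.

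In LacZ fibroblasts, TNFα raised 6 of the 8 genes and IL-1β raised 5, and both lists held Cxcl9, Cxcl16 and Cx3cl1. Cxcl11 and Cxcl13 passed the test with TNFα and not with IL-1β, whereas Cxcl12 and Cxcl14 rose with IL-1β. All comparisons with CTRL share the same 4 CTRL libraries. With TNFα, 6 genes were higher and 0 lower, where 10.9% of all genes tested were higher and 10.4% lower (edgeR's quasi-likelihood test, adjusted p at most 0.05). With the replicate block, 6 were higher and 1 lower, where 17.2% and 18.4% of all genes were. With IL-1β, 5 were higher and 0 lower, where 11.1% of all genes were higher and 9.55% lower, and with the block 6 and 0, where 16.3% and 17.3% were. Both counts of higher genes lay above the share among all genes. The list was chosen with earlier results of these data known, so this excess is no evidence, and no test was made of the list. With TGFβ, 2 were higher and 1 lower, where 17.5% of all genes were higher and 19.3% lower, and with the block 2 and 2, where 19.6% and 22.5% were. With bFGF, 2 were higher and 0 lower, where 7% of all genes were higher and 4.64% lower, and with the block 4 and 1, where 14.2% and 13.1% were. Leaving out Cxcl11, which had few counts, the median log2 fold change over the other 7 genes was 2.92 with TNFα, 2.08 with IL-1β, −0.83 with TGFβ and 1.17 with bFGF. Over all genes tested the median was −0.08, −0.10, −0.17 and −0.03 in the same order.

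In iCre fibroblasts, the same ligands were compared with the iCre CTRL libraries. TNFα raised Cxcl10, Cxcl14, Cxcl16 and Cx3cl1 and lowered Cxcl12, which gave 4 higher and 1 lower, where 14.7% of all genes were higher and 12.3% lower. With the block, 5 were higher and 1 lower, where 18.9% and 17.3% of all genes were. IL-1β raised Cxcl14, Cxcl16 and Cx3cl1, and 0 were lower, where 9.38% and 6.88% of all genes were, and with the block 4 and 0, where 18.1% and 15.6% were. TGFβ raised Cxcl14 and Cx3cl1 and lowered Cxcl12, where 18.6% and 18.8% of all genes were called in each direction, and with the block 2 and 2, where 20.4% and 21.1% were. The call that the block added with TGFβ was a lower Cxcl10. bFGF raised Cxcl14 and Cx3cl1, and 0 were lower, where 1.79% and 0.635% of all genes were, and with the block 3 and 1, where 9.28% and 7.41% were. Without replicate 1, 3 or 4, neither call with bFGF remained (adjusted p from 0.114 to 0.280). The plot of ligand effects shows the LacZ and iCre estimates side by side.

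**Figure D1:**
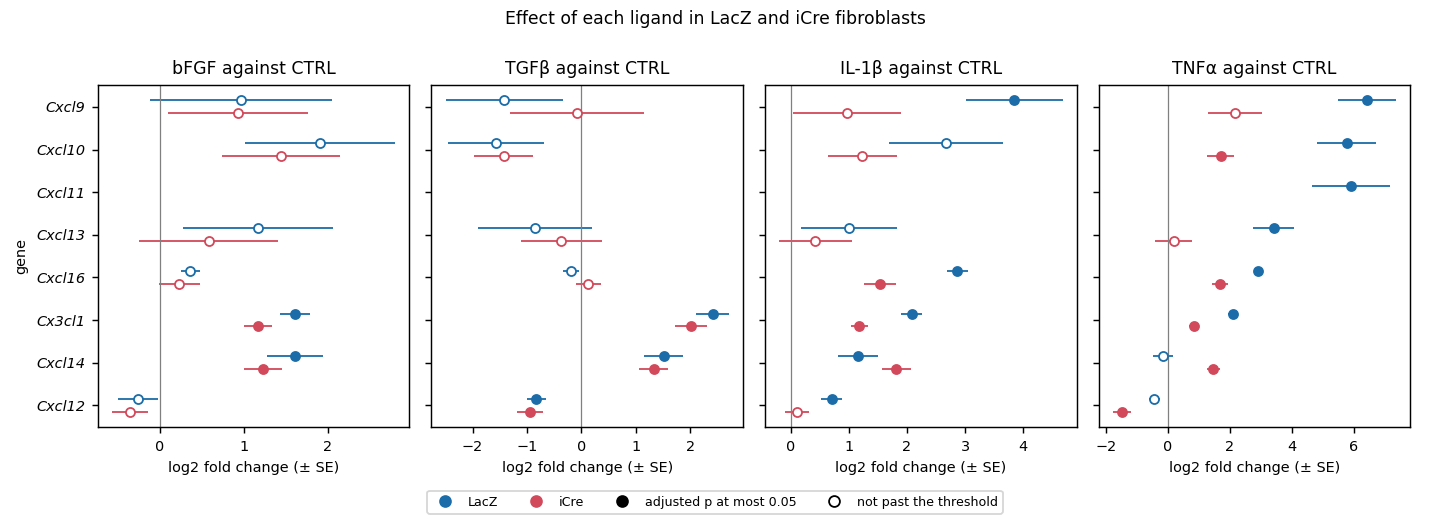
Log2 fold change (x axis, ± SE) of each gene (y axis) for bFGF, TGFβ, IL-1β and TNFα against CTRL, in LacZ (blue) and iCre (red) fibroblasts with 4 libraries a group. Filled points passed an adjusted p of 0.05, and Cxcl11 is drawn only for TNFα in LacZ cells, where it had more than single counts. With TNFα the iCre estimates of Cxcl9, Cxcl10, Cxcl12, Cxcl13, Cxcl16 and Cx3cl1 lie to the left of the LacZ estimates (for Cxcl12, −1.49 and −0.43, both below 0), and that of Cxcl14 lies to the right.

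Between iCre and LacZ fibroblasts, the genes differed most under TNFα, where 6 were lower and only Cxcl14 was higher in iCre cells. Of all genes tested, 12.6% were lower and 14.8% higher, and with the block 7 members were lower and 1 higher, where 15.1% and 17.1% of all genes were. Under IL-1β, Cxcl9 and Cxcl16 were lower and 0 were higher, where 8.98% and 7.14% of all genes were. With the block, 5 were lower and 0 higher under IL-1β, where 14.9% and 14.6% of all genes were. Under the other treatments 0 members passed edgeR's quasi-likelihood test without the block. Under CTRL, 0.0476% of all genes were lower and 0.0278% higher in iCre cells, and 1 member had an unadjusted p under 0.05 and 0 passed DESeq2. With the block, Cxcl16 was lower (−0.34, adjusted p = 0.0283, in 3 of 4 pairs) and Cx3cl1 higher (0.30, adjusted p = 0.0220) under CTRL, where 7.7% and 6.79% of all genes were. Under bFGF, 0% of all genes were called in either direction, and 1 member had an unadjusted p under 0.05 and 1, Cxcl14, passed DESeq2. With the block, 3 were lower and 0 higher under bFGF, where 7.22% and 6.64% of all genes were. These were Cxcl10 (−1.43, adjusted p = 1.32e-05), Cxcl14 (−0.79, adjusted p = 0.000853, lower in 3 of 4 pairs) and Cxcl16 (−0.45, adjusted p = 0.00277). Under TGFβ, 5.87% of all genes were lower and 2.51% higher, and 0 members had an unadjusted p under 0.05 or passed DESeq2. With the block, Cxcl14 was lower under TGFβ (−0.63, adjusted p = 9.67e-05) and 0 were higher, where 11.1% and 9.67% of all genes were. Without replicate 2, Cxcl14 also passed the test without the block (−0.65, adjusted p = 0.00220).

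The interaction test asks whether a ligand's effect differed between iCre and LacZ cells. For TNFα, the effect was smaller in iCre cells for Cxcl10, Cxcl13, Cxcl16 and Cx3cl1 and larger for Cxcl14, which made 4 lower and 1 higher, where 7.7% and 8.38% of all genes were. With the block, 5 were lower and 1 higher, where 11.9% and 13.2% of all genes were. For IL-1β, the effect was smaller for Cxcl16 and Cx3cl1 and 0 were larger, where 4.95% and 2.76% of all genes were, and with the block 4 and 0, where 8.98% and 7.9% were. For TGFβ, 3.62% of all genes had a smaller and 0.893% a larger effect, and for bFGF 0% in either direction. For both ligands, 0 members passed edgeR's quasi-likelihood test, had an unadjusted p under 0.05 or passed DESeq2. These interaction calls were sensitive to single replicate numbers. For TNFα, 3 calls were left without replicate 2, 1 without replicate 3 and 1 without replicate 4. Without replicate 1 there were 7, as Cxcl9 (adjusted p = 0.0197) and Cxcl12 (adjusted p = 0.0354) were gained. For IL-1β 1 was left without replicate 1, 0 without replicate 3 and 0 without replicate 4.

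**Figure D2:**
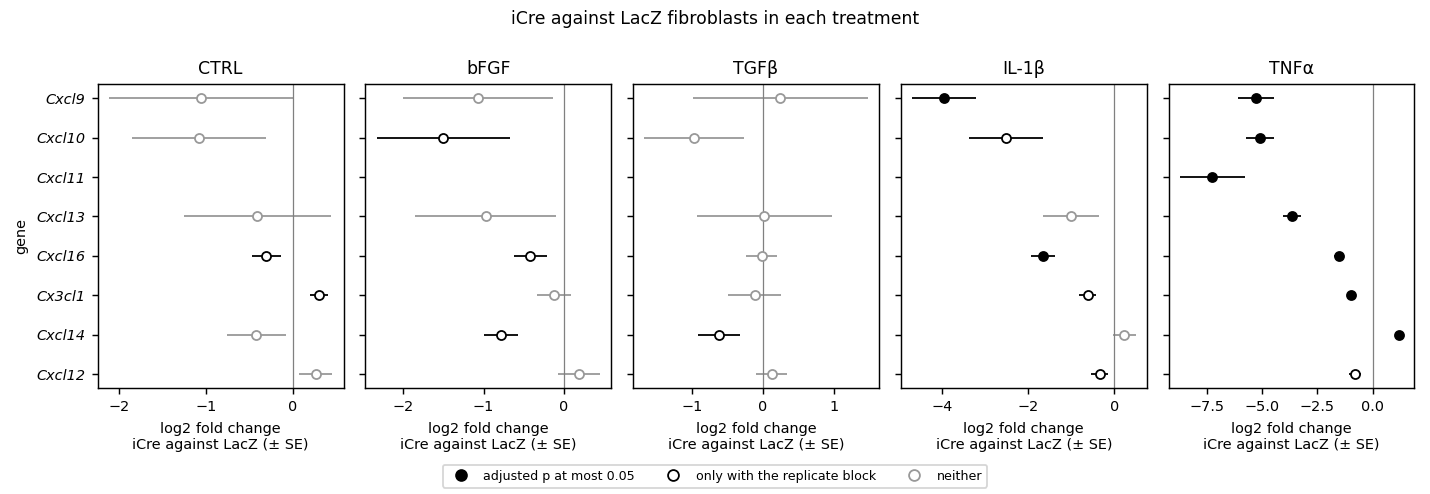
Log2 fold change of iCre against LacZ fibroblasts (x axis, ± SE, a scale of its own in each panel) for each gene (y axis) under CTRL, bFGF, TGFβ, IL-1β and TNFα, 4 libraries a group. Filled points passed an adjusted p of 0.05, open black points passed edgeR's test with the replicate block and not without it, and Cxcl11 is drawn only under TNFα. Under TNFα all points but that of Cxcl14 lie left of 0.

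The CXCR3 ligand genes Cxcl9, Cxcl10 and Cxcl11 lie next to each other on the minus strand of chromosome 5 (GRCm38, chr5:92321347-92328079, chr5:92346638-92348889 and chr5:92359544-92365485). The annotation lists Cxcl9 and Cxcl10 as protein-coding and Cxcl11 as a polymorphic pseudogene. Such a locus is coding in some genomes and not in the annotated reference. CXCL11 protein was not measured here, so counts of Cxcl11 are not read as a CXCR3 ligand. The promoter windows of Cxcl9 and Cxcl10, 250 bases before to 50 bases after the start (RefSeq, GRCm38.p6), are shown because both genes moved together under TNFα while their motif content differed, and that of Cxcl14 because it holds an interferon motif and did not rise with TNFα in LacZ cells. Capitals mark matches to the κB consensus, the binding motif of NF-κB, and to the core of the interferon-stimulated response element (ISRE), a pair of GAAA repeats with any 2 bases between them. The windows lie on the minus strand at chr5:92348840-92349139 (Cxcl10), chr5:92328030-92328329 (Cxcl9) and chr13:56296502-56296801 (Cxcl14) and are written 5′ to 3′ along the gene.
Cxcl10: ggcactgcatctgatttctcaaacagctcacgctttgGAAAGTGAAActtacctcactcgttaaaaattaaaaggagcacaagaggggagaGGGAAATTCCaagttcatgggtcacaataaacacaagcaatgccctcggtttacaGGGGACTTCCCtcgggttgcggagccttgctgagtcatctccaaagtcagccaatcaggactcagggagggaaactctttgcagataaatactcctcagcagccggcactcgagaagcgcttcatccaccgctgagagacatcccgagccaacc
Cxcl9: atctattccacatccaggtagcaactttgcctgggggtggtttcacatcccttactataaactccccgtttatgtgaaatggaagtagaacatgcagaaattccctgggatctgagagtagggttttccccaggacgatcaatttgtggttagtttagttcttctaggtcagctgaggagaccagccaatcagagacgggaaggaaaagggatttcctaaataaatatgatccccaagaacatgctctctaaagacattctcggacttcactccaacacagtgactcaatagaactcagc
Cxcl14: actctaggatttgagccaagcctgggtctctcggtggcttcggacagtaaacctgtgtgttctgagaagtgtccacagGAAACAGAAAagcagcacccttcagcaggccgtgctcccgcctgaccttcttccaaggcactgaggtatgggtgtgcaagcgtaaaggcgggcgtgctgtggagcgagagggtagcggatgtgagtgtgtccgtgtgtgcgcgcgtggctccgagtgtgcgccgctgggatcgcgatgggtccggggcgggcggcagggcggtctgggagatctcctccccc

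Windows were held for 6 of the 8 genes, without Cxcl11 and Cxcl16, and both strands were searched. The Cxcl10 window held 4 κB matches, at −159, at −104 and at −103 on both strands (the last 3 overlapping), and an ISRE core at −213, where positions give the first base from the transcription start. The Cxcl14 window held an ISRE core at −172 and a GAS motif (TTCNNNGAA) at −191. The AP-1 motif TGANTCA was found at −74 in Cxcl10 and at 32 in Cxcl9. The windows of Cxcl12, Cxcl13 and Cx3cl1 held no match to these 4 motifs. Over 32851 windows of the same length, 8.46% held a κB match, 3.44% an ISRE core, 8.30% a GAS motif and 7.81% an AP-1 motif. A match describes letters in the window and no binding.

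**Figure D3:**
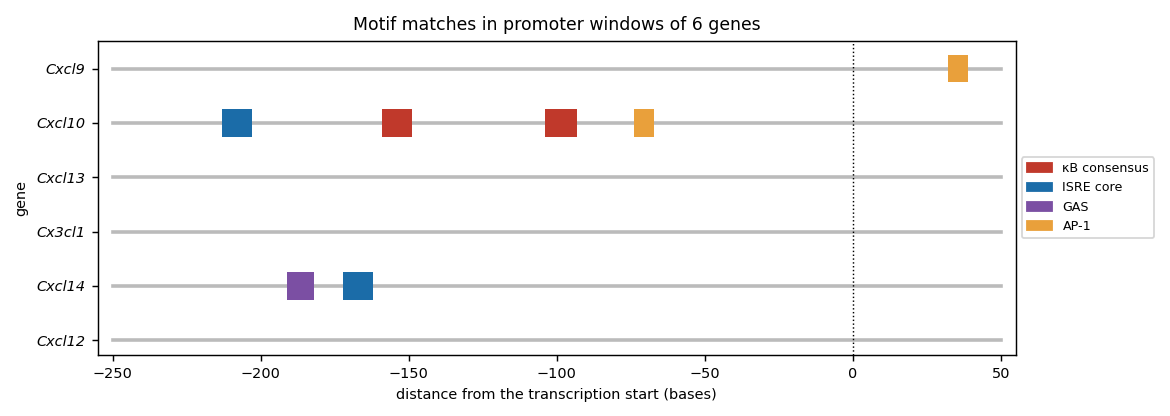
Matches to 4 motifs in the promoter windows of 6 genes, by distance from the transcription start (x axis, bases), 1 line per gene (y axis) and 1 colour per motif. Overlapping κB matches of Cxcl10 are drawn on top of each other, and the lines of Cxcl13, Cx3cl1 and Cxcl12 carry no match.

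Cxcl10 encodes IP-10, a chemoattractant of T cells. In LacZ CTRL libraries it lay at 0.357, 6.48, 4.60 and 11.9 CPM in replicates 1 to 4. With TNFα it lay at 56.3, 482, 285 and 428 CPM. All 4 TNFα libraries were above all 4 CTRL libraries, and replicate 1 was the lowest in both groups. The mean rose 53.7-fold, and the log2 fold change was 5.76 (SE 0.94, adjusted p = 0.00217). In iCre cells TNFα gave 14.9, 6.68, 7.67 and 5.93 CPM, against 1.11, 3.89, 1.87 and 4.28 CPM in iCre CTRL. These groups did not overlap either, and here replicate 1 was the highest TNFα library. The rise in iCre cells was 1.70 on the log2 scale (SE 0.45, adjusted p = 0.0181), and its adjusted p was 0.0984 without replicate 3 and 0.160 in a fit of all 40 libraries. Under TNFα the iCre mean was 35.5-fold below the LacZ mean (log2 fold change −5.12, SE 0.64, adjusted p = 0.000482, 4 of 4 pairs lower). The difference of the effects of TNFα was −4.06 (SE 1.04, adjusted p = 0.0133). Without replicate 2, 3 or 4 its adjusted p was 0.0799, 0.113 or 0.0754.

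With IL-1β, Cxcl10 reached 1.75, 41.6, 28.4 and 73.7 CPM in LacZ cells. Each library was above the CTRL library of its number, but replicate 1 lay within the CTRL range. The log2 fold change of 2.66 missed the threshold (SE 0.98, adjusted p = 0.0844) and passed it with the block (2.63, adjusted p = 9.65e-20) and without replicate 1 (2.65, adjusted p = 0.00652). In iCre cells IL-1β gave 3.83, 7.45, 1.67 and 12.9 CPM, higher than iCre CTRL in 3 of 4 pairs and lower in replicate 3 (1.67 against 1.87 CPM), with an estimate of 1.23 (SE 0.60, adjusted p = 0.211, with the block 6.54e-09). Under IL-1β, iCre cells were above LacZ cells in replicate 1 and below in the other 3 pairs, at −2.51 (SE 0.87, adjusted p = 0.0778), which passed with the block (−2.24, adjusted p = 0.000478) and without replicate 1 (−2.72, adjusted p = 0.0309). The difference of the effects of IL-1β was −1.43 (SE 1.26, adjusted p = 0.592). TGFβ had the lowest Cxcl10 levels, 0.193, 2.56, 1.71 and 3.37 CPM in LacZ cells and 0.397, 1.85, 0.637 and 1.19 CPM in iCre cells. In both cell groups 4 of 4 pairs were lower than CTRL, and Cxcl10 passed the test with the block, at −1.45 in LacZ (adjusted p = 0.000110, without the block 0.194) and −1.46 in iCre cells (adjusted p = 0.000276, without the block 0.0591). Without replicate 1 it also passed without the block, with adjusted p of 0.0192 and 0.0490, and in iCre cells also with DESeq2 (0.0204) and without replicate 2 (0.0246). bFGF gave 3.43, 28.5, 9.67 and 43.8 CPM in LacZ cells and 0.715, 12.8, 6.62 and 9.91 CPM in iCre cells, higher than CTRL in 4 of 4 and in 3 of 4 pairs. These estimates passed with the block only, at 1.92 (adjusted p = 4.15e-06, without the block 0.213) and 1.26 (adjusted p = 0.00244, without the block 0.337).

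Cxcl9, known as MIG, followed Cxcl10 at a lower level. It lay at 0, 0.395, 0.106 and 0.349 CPM in LacZ CTRL and at 2.58, 35.9, 13.6 and 18.9 CPM with TNFα. The groups did not overlap, and replicate 1 was the lowest in both. The log2 fold change was 6.42 (SE 0.93, adjusted p = 0.00113). With IL-1β it lay at 0.629, 2.96, 2.85 and 5.41 CPM, also without overlap with CTRL. This rise of 3.84 (SE 0.83, adjusted p = 0.00923) was no longer past the threshold without replicate 3 (adjusted p = 0.0753) or replicate 4 (adjusted p = 0.0541). In iCre cells Cxcl9 stayed low, at 1.04, 0.190, 0.253 and 0.292 CPM with TNFα and 0.0561, 0.182, 0.0858 and 0.482 CPM with IL-1β. All iCre libraries were below all LacZ libraries under either cytokine. The log2 difference was −5.29 under TNFα (SE 0.83, adjusted p = 0.00142) and −3.95 under IL-1β (SE 0.74, adjusted p = 0.00513, and 0.0513 without replicate 3). Against iCre CTRL, the estimate for TNFα was 2.16 (SE 0.86, adjusted p = 0.0935, with the block 0.0408). The differences of effects were −4.22 for TNFα (SE 1.54, adjusted p = 0.0772, without replicate 1 0.0197) and −2.88 for IL-1β (SE 1.39, adjusted p = 0.268, with the block 0.0392).

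Cxcl11, known as I-TAC, was nearly absent. It had 187 counts over all 40 libraries, and 179 of them came from LacZ cells with TNFα. There it had 0, 79, 38 and 62 counts in replicates 1 to 4, so replicate 1 was at 0 like most libraries of the other groups. The other groups held 4 counts in LacZ CTRL and 1 count each in LacZ bFGF, LacZ IL-1β, iCre IL-1β and iCre TNFα. Pooled over libraries, LacZ TNFα was 67.2 times LacZ CTRL (95% counting interval 25.8 to 249), 201 times LacZ IL-1β (35.5 to 7968) and 243 times iCre TNFα (43.0 to 9636). These intervals cover counting error only. The fits gave an adjusted p of 0.00817 against CTRL, 0.0105 against IL-1β and 0.00491 against iCre TNFα. Leaving out replicate 4 ended all 3 calls (adjusted p of 0.0606, 0.134 and 0.0647), and leaving out replicate 3 ended the first 2 (0.0555 and 0.0786).

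**Figure D4:**
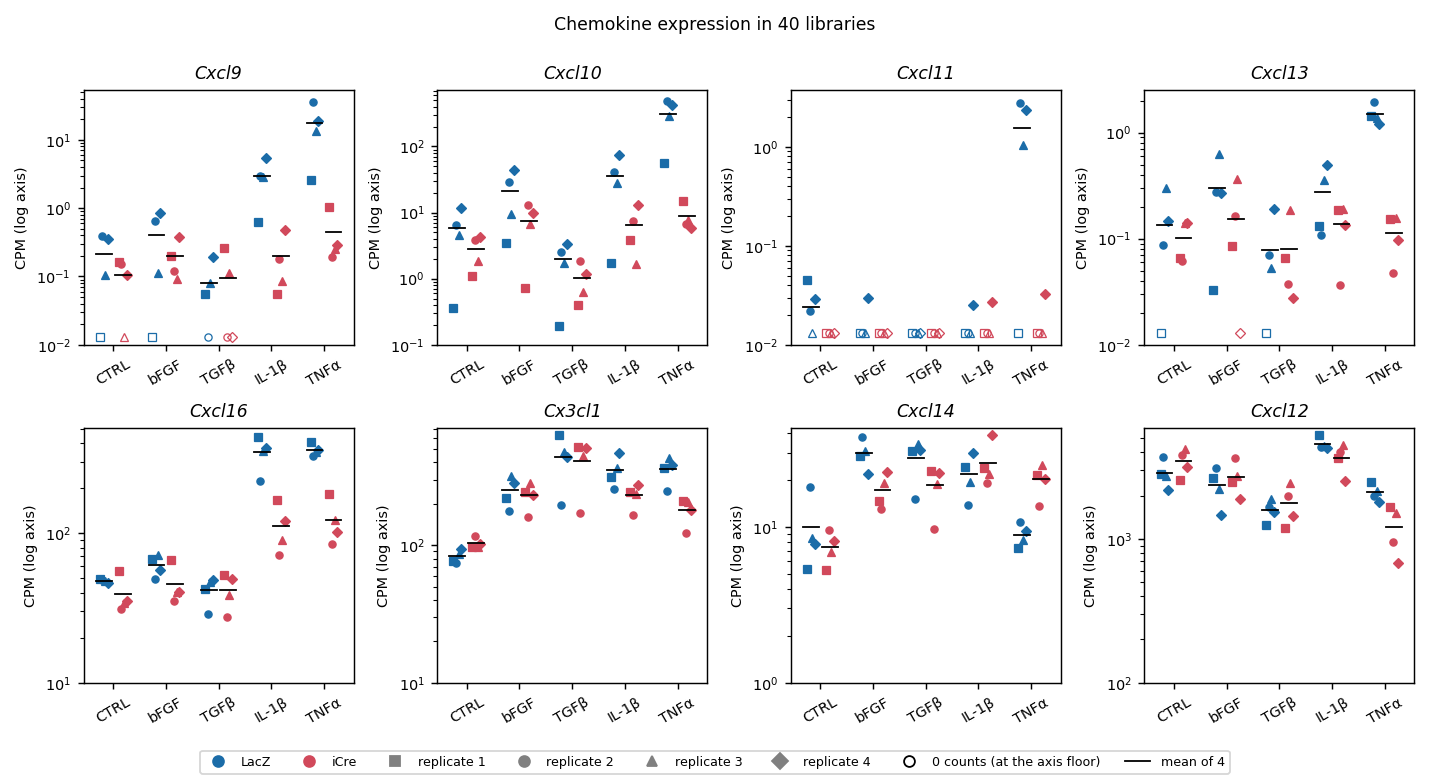
CPM (y axis, log scale) of each gene in all 40 libraries, by ligand (x axis), in LacZ (blue) and iCre (red) fibroblasts, with the replicate number as the symbol and bars at the mean of 4 libraries. Open symbols at the axis floor had 0 counts. The LacZ TNFα points of Cxcl9, Cxcl10, Cxcl11 and Cxcl13 stand above all other groups except for single libraries of replicate 1, which for Cxcl10 lies at 56.3 CPM and for Cxcl11 at 0.

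Cxcl10 was set beside the sum of 12 interferon-stimulated genes (Isg15, Ifit1, Ifit3, Rsad2, Mx1, Oas1a, Oasl1, Usp18, Gbp2, Gbp3, Iigp1 and Irgm1) in each library. That sum was 325 CPM in replicate 1 and 1196 to 2180 CPM in replicates 2 to 4 of LacZ CTRL. With TNFα it was 3612 and 4920 to 6004 CPM in LacZ cells, and 1053 and 332 to 752 CPM in iCre cells. Replicate 1 was thus the lowest library in LacZ cells and the highest in iCre cells with TNFα, for the sum as for Cxcl9 and Cxcl10. The sum and Cxcl10 did not order the libraries alike in every group. In LacZ CTRL, replicate 2 had more Cxcl10 than replicate 3 (6.48 and 4.60 CPM) at the lower sum (1196 and 1379 CPM), and in LacZ TNFα replicate 2 had more than replicate 4 (482 and 428 CPM), also at the lower sum. In iCre cells with TNFα, replicate 4 had the lowest Cxcl10 (5.93 CPM) and the second highest sum (752 CPM), and with bFGF, replicate 2 had the highest Cxcl10 (12.8 CPM) at a sum of 689.7 CPM, below replicates 3 and 4. Across groups, Cxcl10 was lowest in replicate 1 in 5 of 5 LacZ and 3 of 5 iCre groups, and Cxcl9 in 4 and 1. The library names in the labels number replicate 1 of all 10 groups in a run of its own, apart from the run that holds replicates 2 to 4, and do not say what the runs stand for. The part of this split in the results was not tested beyond the block and the values without replicate 1.

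**Figure D5:**
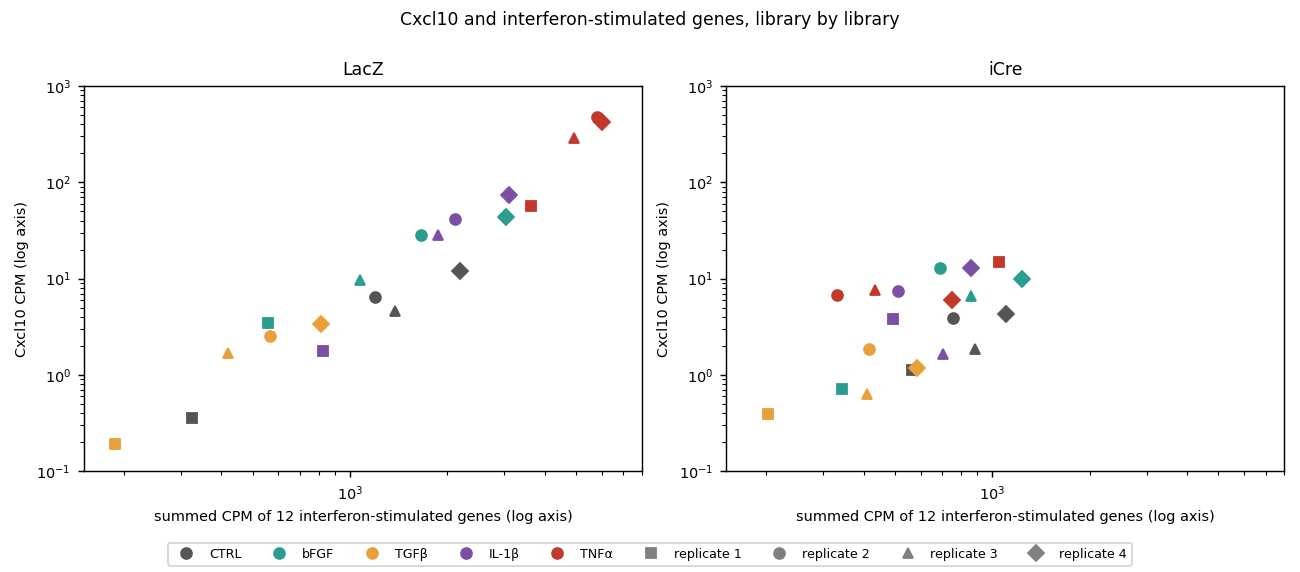
Cxcl10 (y axis, CPM, log scale) against the summed CPM of 12 interferon-stimulated genes (x axis, log scale), 20 LacZ libraries on the left and 20 iCre libraries on the right, coloured by ligand with the replicate number as the symbol. In LacZ cells the libraries lie between 0.193 and 482 CPM of Cxcl10, and the iCre libraries stay at or below 14.9 CPM.

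The 12 interferon-stimulated genes were also tested. With TNFα in LacZ cells, 5 of 12 were higher and 0 lower without the block, where 10.9% and 10.4% of all genes were, and 12 were higher with it, where 17.2% of all genes were. The 3 with the largest change were the guanylate-binding GTPases Gbp2 (3.73, adjusted p = 5.79e-05) and Gbp3 (2.37, adjusted p = 0.00587) and the antiviral GTPase Mx1 (2.68, adjusted p = 0.0206). With IL-1β, Gbp2 alone passed without the block (1.91, adjusted p = 0.00212), where 11.1% of all genes were higher and 9.55% lower. With the block 10 were higher with IL-1β, where 16.3% of all genes were. Under TNFα all 12 were lower in iCre than in LacZ cells, where 12.6% of all genes were lower and 14.8% higher. Their median log2 fold change was −2.95 beside 0.00 over all genes. Of 15 interferon receptors and regulators, 10 were higher with TNFα in LacZ cells and 0 lower (with the block 12 and 0), where 10.9% and 10.4% of all genes were (with the block 17.2% and 18.4%), led by the transcription factor Irf1 (2.59, adjusted p = 2.68e-05), the kinase Jak2 (2.26, adjusted p = 2.42e-05) and the receptor chain Ifngr2 (1.54, adjusted p = 2.97e-05). With IL-1β 6 were higher and 0 lower, where 11.1% and 9.55% of all genes were (with the block 9 and 0, where 16.3% and 17.3% were), led by Jak2 (2.04, adjusted p = 6.11e-06), Ifnar2 (1.68, adjusted p = 3.42e-06) and Ifnar1 (0.80, adjusted p = 0.00466). In iCre cells under TNFα, 11 of the 15 were lower and 1 higher than in LacZ cells, where 12.6% and 14.8% of all genes were. Of 12 NF-κB subunits and regulators, 9 were higher with TNFα and 0 lower, where 10.9% and 10.4% of all genes were, led by the feedback inhibitors Tnfaip3 (4.63, adjusted p = 4e-06) and Nfkbia (3.46, adjusted p = 8.2e-06) and the subunit Relb (2.52, adjusted p = 3.7e-07). With the block 11 were higher with TNFα and 1 lower, where 17.2% and 18.4% of all genes were, and the lower gene was the kinase gene Map3k14 (−0.27, adjusted p = 0.0226). With IL-1β 10 were higher and 1 lower, where 11.1% and 9.55% of all genes were (with the block 11 and 1, where 16.3% and 17.3% were), led by Tnfaip3 (3.50, adjusted p = 6.11e-06), Nfkbiz (2.86, adjusted p = 1.12e-05) and Nfkbia (2.54, adjusted p = 3.23e-06). In iCre cells under TNFα, 6 of the 12 were lower and 1 higher than in LacZ cells, where 12.6% and 14.8% of all genes were. Against iCre CTRL, TNFα raised 10 of these 12 and lowered 0, where 14.7% and 12.3% of all genes were. IL-1β raised 10 and lowered 0, where 9.38% and 6.88% were. With the block it was 11 and 0 with TNFα, where 18.9% and 17.3% were. For IL-1β it was 12 and 0, where 18.1% and 15.6% were. TNFα raised 0 and lowered 1 of the 12 interferon-stimulated genes in iCre cells, with the block 0 and 2.

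Cxcl13, the B cell chemoattractant (chr5:95956951-95961068), was scarce and responded to TNFα in LacZ cells. It had 42, 56, 50 and 32 counts there, or 1.42, 1.96, 1.38 and 1.21 CPM. In LacZ CTRL it had 0, 4, 17 and 5 counts, and in iCre TNFα 6, 2, 8 and 3. LacZ TNFα was the only group of the 10 that overlapped with no other group, and replicate 1 did not stand apart in it. The log2 fold change against CTRL was 3.41 (SE 0.65, adjusted p = 0.00502), and iCre cells were at −3.64 from LacZ cells under TNFα (SE 0.40, adjusted p = 0.000281). The estimate for TNFα in iCre cells was 0.18 (SE 0.58, adjusted p = 0.862). The difference of effects was −3.24 (SE 0.93, adjusted p = 0.0253), with adjusted p of 0.0913, 0.0589 and 0.160 without replicates 2, 3 and 4 and of 0.0599 with a GC correction. With IL-1β the LacZ libraries had 4, 4, 10 and 20 counts, and the estimate of 1.00 missed the threshold (SE 0.83, adjusted p = 0.438).

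Of the chemokines made as membrane proteins, Cxcl16 (chr11:70453983-70459984) encodes a scavenger receptor and chemokine in a single protein. In LacZ CTRL it lay at 49.5, 48.3, 47.7 and 46.3 CPM. IL-1β gave 439, 222, 357 and 370 CPM, and TNFα 407, 331, 350 and 358 CPM. Both groups were above all other groups and overlapped with each other. The log2 fold changes were 2.87 for IL-1β (SE 0.19, adjusted p = 7.91e-06) and 2.92 for TNFα (SE 0.09, adjusted p = 2.39e-07). In iCre cells Cxcl16 lay at 55.9, 31.2, 33.9 and 35.4 CPM in CTRL, at 166, 71.4, 89.9 and 121 CPM with IL-1β and at 183, 84.4, 123 and 102 CPM with TNFα. It thus still rose in iCre cells, by 1.54 with IL-1β (SE 0.27, adjusted p = 0.00442) and 1.69 with TNFα (SE 0.26, adjusted p = 0.00125), and reached a lower level than in LacZ cells. Under IL-1β, iCre cells were at −1.65 from LacZ cells (SE 0.28, adjusted p = 0.00288), and under TNFα at −1.53 (SE 0.22, adjusted p = 0.000867). The difference of effects was −1.34 for IL-1β (SE 0.35, adjusted p = 0.0258) and −1.24 for TNFα (SE 0.29, adjusted p = 0.00809). Without replicate 3 or 4 these had adjusted p of 0.194 and 0.152 for IL-1β and of 0.0709 and 0.0860 for TNFα. With bFGF, Cxcl16 lay between 49.3 and 71.6 CPM in LacZ cells and passed with the block (0.35, adjusted p = 0.00576, without the block 0.0708). With TGFβ it lay between 28.8 and 48.5 CPM, an estimate of −0.19 (SE 0.14, adjusted p = 0.343).

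Cx3cl1 (chr8:94772009-94782427) rose with every ligand. In LacZ CTRL it lay at 77.2, 74.4, 87.0 and 94.6 CPM. TGFβ gave 638, 197, 477 and 435 CPM, a log2 fold change of 2.41 (SE 0.30, adjusted p = 0.000142). TNFα gave 362, 249, 431 and 385 CPM, at 2.10 (SE 0.17, adjusted p = 3.58e-05), and IL-1β 314, 258, 361 and 465 CPM, at 2.08 (SE 0.18, adjusted p = 4.74e-05). bFGF gave 222, 177, 318 and 286 CPM, at 1.61 (SE 0.18, adjusted p = 0.000971). Every treated library was above every CTRL library, and replicate 2 was the lowest in each treated group. In iCre cells the levels were 96.6 to 118 CPM in CTRL, 161 to 283 CPM with bFGF, 172 to 520 CPM after TGFβ, 167 to 274 CPM after IL-1β and 122 to 210 CPM after TNFα. All 4 rises passed the test, at 1.17 (SE 0.16, adjusted p = 0.0188), 2.02 (SE 0.29, adjusted p = 0.000305), 1.18 (SE 0.15, adjusted p = 0.000911) and 0.83 (SE 0.17, adjusted p = 0.00442) in the order bFGF, TGFβ, IL-1β and TNFα. Without replicate 3 the last was 0.72 (adjusted p = 0.0528). The response to the cytokines was smaller in iCre than in LacZ cells, by −1.27 for TNFα (SE 0.25, adjusted p = 0.00214) and −0.91 for IL-1β (SE 0.24, adjusted p = 0.0242). The IL-1β difference did not pass without replicate 1, 3 or 4 (adjusted p of 0.126, 0.161 and 0.0519) or in a fit of all 40 libraries (0.182). For TGFβ the difference of −0.42 missed the threshold (SE 0.44, adjusted p = 0.743), as did that of −0.43 for bFGF (SE 0.25, adjusted p = 1). Under TNFα, iCre cells lay below LacZ cells without overlap (−0.97, SE 0.21, adjusted p = 0.00634, and 0.0538 without replicate 4), and under IL-1β the estimate of −0.62 passed with the block (adjusted p = 7.27e-06, without the block 0.0581).

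Of the homeostatic chemokines, Cxcl12, known as SDF-1 (chr6:117168535-117181367), was the most abundant of the 8 genes per length, at 351 RPKM (CPM per kilobase of merged exons; SD 76.1) in LacZ CTRL, beside 21.2 RPKM for Cx3cl1, 15.9 RPKM for Cxcl16, 5.44 RPKM for Cxcl14 and 2.59 RPKM for Cxcl10. With TNFα in LacZ cells Cxcl10 reached 139 RPKM (SD 84.4), beside 259 RPKM for Cxcl12 (SD 36.6), 120 RPKM for Cxcl16 and 90.8 RPKM for Cx3cl1. In CPM, Cxcl12 lay at 2814, 3705, 2743 and 2203 in LacZ CTRL. IL-1β gave 5324, 4353, 4450 and 4301 CPM, all above CTRL, a log2 fold change of 0.70 (SE 0.18, adjusted p = 0.0186). This call did not hold without replicate 1, 3 or 4 (adjusted p from 0.0939 to 0.105). TNFα gave 2505, 1977, 2166 and 1808 CPM, lower in 4 of 4 pairs but overlapping CTRL, at −0.43 (SE 0.17, adjusted p = 0.101, with the block 0.000389). Compared directly, TNFα against IL-1β gave −1.12 (SE 0.15, adjusted p = 0.00101). TGFβ gave 1259, 1674, 1894 and 1551 CPM, all below CTRL (−0.83, SE 0.18, adjusted p = 0.00394). In iCre cells TNFα gave 1673, 953, 1514 and 677 CPM, against 2582, 3840, 4235 and 3191 CPM in iCre CTRL. This was the lowest Cxcl12 level of the 10 groups, and the fall of −1.49 passed the test (SE 0.29, adjusted p = 0.00392). TGFβ lowered Cxcl12 in iCre cells as well (−0.95, SE 0.23, adjusted p = 0.00830), and IL-1β gave 0.11 (SE 0.20, adjusted p = 0.792). Under TNFα, iCre cells were at −0.79 from LacZ cells without overlap (SE 0.27, adjusted p = 0.0548). This passed with the block (−0.87, adjusted p = 0.00294), as did the difference of effects (−1.12, adjusted p = 0.00773, without the block −1.06 and 0.0505). Both also passed without the block when replicate 1 was left out (adjusted p of 0.0392 and 0.0354) and with DESeq2 (0.0105 and 0.00968), RLE scaling (0.0431 and 0.0389), the stricter count filter (0.0372 and 0.0340), the GC correction (0.0351 and 0.0362) and the fit of all 40 libraries (0.0123 and 0.0323). Under IL-1β the estimate of −0.34 (adjusted p = 0.294) and the difference of effects of −0.61 (adjusted p = 0.229) passed with the block only (adjusted p of 0.0172 and 0.0247), and iCre cells were lower in 3 of 4 pairs. With bFGF, Cxcl12 was lower in 4 of 4 pairs in both cell groups and passed with the block only, at −0.29 in LacZ (adjusted p = 0.0135, without the block 0.538) and −0.36 in iCre cells (adjusted p = 0.0226, without the block 0.465).

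Cxcl14 (chr13:56288643-56296551), also called BRAK, had a pattern of its own. In LacZ cells it lay at 5.40, 18.1, 8.50 and 7.73 CPM in CTRL and at 7.36, 10.7, 8.18 and 9.39 CPM with TNFα, groups that overlapped (−0.15, SE 0.32, adjusted p = 0.793). In iCre cells it lay at 5.30, 9.61, 6.88 and 8.06 CPM in CTRL and at 21.5, 13.7, 25.1 and 20.4 CPM with TNFα. These did not overlap, and the rise was 1.47 (SE 0.22, adjusted p = 0.00116). Under TNFα, Cxcl14 was therefore higher in iCre than in LacZ cells (1.20, SE 0.19, adjusted p = 0.00157), and the difference of effects was 1.61 (SE 0.42, adjusted p = 0.0155). Without replicate 3 or 4 that difference had adjusted p of 0.155 and 0.0828. bFGF raised Cxcl14 in LacZ (1.61, SE 0.33, adjusted p = 0.0136) and iCre cells (1.23, SE 0.22, adjusted p = 0.0261), and so did TGFβ (1.51, SE 0.36, adjusted p = 0.00746, and 1.33, SE 0.27, adjusted p = 0.00287). IL-1β raised it in iCre (1.81, SE 0.25, adjusted p = 0.00141) and LacZ cells (1.16, SE 0.35, adjusted p = 0.0393), the latter not without replicate 1, 3 or 4 (adjusted p from 0.155 to 0.228). In LacZ cells the TGFβ call was lost without replicate 3 or 4 (adjusted p of 0.0598 and 0.0571) and the bFGF call without replicate 1, 3 or 4 (adjusted p from 0.0554 to 0.120). The LacZ CTRL library of replicate 2, at 18.1 CPM, lay within the TGFβ and IL-1β ranges.

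TNFα and IL-1β were also compared directly in LacZ cells. TNFα gave more Cxcl9, Cxcl11 and Cxcl13 and less Cxcl12 and Cxcl14 than IL-1β, 3 higher and 2 lower, where 4.78% and 4.84% of all genes were. With the block 4 were higher and 2 lower, where 12.2% and 12% of all genes were. Cxcl9 was higher in 4 of 4 pairs (2.57, SE 0.72, adjusted p = 0.0497), with adjusted p of 0.0865, 0.205 and 0.117 without replicates 2, 3 and 4, 0.0518 with a stricter count filter and 0.0527 with a GC correction. Cxcl10 was higher in 4 of 4 pairs at 3.10 (SE 0.88, adjusted p = 0.0524) and passed with the block (3.39, adjusted p = 3.78e-15) and without replicate 1 (3.05, adjusted p = 0.00175). Cxcl13 was higher at 2.42 (SE 0.46, adjusted p = 0.00770, and 0.0562 without replicate 3), and Cxcl14 lower at −1.29 (SE 0.22, adjusted p = 0.00393). Cxcl16 and Cx3cl1 were at 0.06 (SE 0.18, adjusted p = 0.920) and 0.03 (SE 0.20, adjusted p = 0.993), differences smaller than the spread between replicates. The neutrophil-attracting CXC chemokines, a set of 7 genes, had 5 higher and 1 lower with either cytokine against CTRL, where 10.9% and 10.4% of all genes were with TNFα and 11.1% and 9.55% with IL-1β. Cxcl1 (7.59, adjusted p = 6.29e-07), Cxcl5 (7.15, adjusted p = 3.23e-06) and Cxcl2 (6.00, adjusted p = 7.64e-06) led with IL-1β. Cxcl2 (4.87, adjusted p = 0.000358), Cxcl3 (4.24, adjusted p = 0.00365) and Cxcl15 (−3.14, adjusted p = 0.00526) led with TNFα, at means of only 4.49, 0.991 and 0.162 CPM. The more abundant Cxcl5 (124 CPM) and Cxcl1 (35.5 CPM) rose with TNFα by 2.34 (adjusted p = 0.00543) and 2.26 (adjusted p = 2.83e-06). For the 7 genes, the TNFα against IL-1β comparison had 0 higher and 2 lower, where 4.78% and 4.84% of all genes were. With the block it had 0 and 6, where 12.2% and 12% were.

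Receptors of these chemokines were few. The CXCR3, CXCR5 and CXCR6 genes held 15, 41 and 418 counts over 40 libraries (Cxcr3, Cxcr5, Cxcr6). Cxcr6, the CXCL16 receptor, rose with TGFβ from 1 count in the 4 LacZ CTRL libraries to 222 counts, or 1.49 CPM, in LacZ cells (adjusted p = 4.09e-05) and from 1 to 168 counts in iCre cells (adjusted p = 4.25e-05). Cxcr5 passed in iCre cells with TGFβ (adjusted p = 0.00942), with 20 counts against 0 in iCre CTRL. Ackr3, the scavenging receptor of CXCL12, was the abundant receptor gene, at 67.7 CPM in LacZ CTRL, 290 CPM with IL-1β (2.11, SE 0.39, adjusted p = 0.00399) and 173 CPM with TNFα (1.35, SE 0.33, adjusted p = 0.0156). Cxcr4, the signalling receptor of CXCL12, moved in opposite directions with TNFα. It fell in LacZ cells from 0.703 to 0.159 CPM (−2.16, SE 0.55, adjusted p = 0.0193) and rose in iCre cells from 1.21 to 6.08 CPM (2.37, SE 0.25, adjusted p = 0.000269), a difference of effects of 4.53 (SE 0.58, adjusted p = 0.000102). Under IL-1β it was also higher in iCre than in LacZ cells (2.75, SE 0.38, adjusted p = 0.00104), and TGFβ raised it in LacZ cells (1.46, SE 0.39, adjusted p = 0.0134). Cx3cr1, the fractalkine receptor, fell with IL-1β in LacZ cells (−1.98, SE 0.56, adjusted p = 0.0326) from a mean of 1.18 CPM. The scavenging receptor Ackr2 was higher with bFGF in LacZ (2.45, adjusted p = 0.0166) and iCre cells (adjusted p = 0.0408), and in iCre cells also with IL-1β (3.03, adjusted p = 0.0111) and TNFα (3.57, adjusted p = 0.00154), at means under 1 CPM. Ackr4 rose with bFGF in LacZ cells from 3.91 to 40.7 CPM (3.39, SE 0.73, adjusted p = 0.0164), and Ackr1 rose with IL-1β (1.59, adjusted p = 0.0171) and TNFα (1.67, adjusted p = 0.0298) to means under 1 CPM. Of all 9 receptor genes, 2 were higher and 1 lower with TNFα as with IL-1β in LacZ cells, where 10.9% and 10.4% of all genes were with TNFα and 11.1% and 9.55% with IL-1β. With the block they were 3 and 3 with TNFα, where 17.2% and 18.4% of all genes were, and 2 and 3 with IL-1β, where 16.3% and 17.3% were.

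The proteases that process these proteins are Adam10 and Adam17, which shed CX3CL1 and CXCL16, and Dpp4, which trims the amino terminus of CXCR3 ligands and CXCL12. Adam17 rose in LacZ cells with TNFα from 119 to 309 CPM (1.39, SE 0.09, adjusted p = 1.37e-05) and with IL-1β to 193 CPM (0.71, SE 0.09, adjusted p = 0.000397), and fell with TGFβ (−0.59, SE 0.10, adjusted p = 0.000778). Under TNFα, Adam17 (−0.99, SE 0.09, adjusted p = 0.000150), Adam10 (−0.61, SE 0.08, adjusted p = 0.000727) and Dpp4 (−2.43, SE 0.70, adjusted p = 0.0269) were all lower in iCre than in LacZ cells, Adam10 not with the GC correction (−0.23, adjusted p = 0.121, with the block 0.0981), nor Dpp4 (−2.06, adjusted p = 0.0558, with the block 0.0241). Adam10 against CTRL in LacZ cells passed with the block, at 0.21 with IL-1β (adjusted p = 0.0309, without the block 0.199), 0.18 with TNFα (adjusted p = 0.0162, without the block 0.201 and with the GC correction and the block 0.103) and 0.35 with TGFβ (adjusted p = 0.00629, without the block 0.0747 and with DESeq2 0.0466). Dpp4 fell with each of the 4 ligands in LacZ cells, by 2.53 with bFGF, 2.31 after TGFβ, 3.46 after IL-1β and 1.87 after TNFα on the log2 scale (adjusted p of 0.00320, 0.000360, 0.000182 and 0.00237), from a mean of 3.70 CPM.

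Other features of the libraries moved with some groups, and their part in the results was not tested unless a value is given. In bulk RNA, fewer cells of a type and less RNA per cell cannot be told apart. The summed fibroblast markers lay between 15351 and 23387 CPM in iCre TNFα and between 25795 and 34599 CPM in LacZ TNFα, and between 22845 and 35690 CPM in iCre IL-1β and 36618 and 69714 CPM in LacZ IL-1β, without overlap in either. Under CTRL, bFGF and TGFβ the iCre and LacZ ranges overlapped, and with TGFβ they ran from 46878 to 66622 CPM, in both cell groups above all CTRL libraries of the same cells. The summed macrophage and leukocyte markers lay between 50.1 and 145 CPM in LacZ CTRL, 41.2 and 157 CPM in LacZ TNFα, 28.2 and 81.8 CPM in iCre CTRL and 34.4 and 115 CPM in iCre TNFα, so their ranges overlapped between all 4 groups. The B cell marker Cd79a was at 0 in 14 libraries and Cd3e in all 40. The summed pericyte markers Rgs5, Kcnj8 and Abcc9 lay between 61.3 and 355 CPM in LacZ TNFα and between 272 and 1075 CPM in iCre TNFα. These ranges overlapped, and the sum was almost all Rgs5, as Kcnj8 and Abcc9 reached at most 5.73 and 11.6 CPM. The summed endothelial markers lay between 24.9 and 26.1 CPM in LacZ CTRL, between 6.65 and 15.8 CPM in the other 4 LacZ groups and between 3.84 and 17.9 CPM in the iCre groups. Of the cardiomyocyte markers, Myh6 was at 0 in 37 libraries and Actc1 in 31, and the sum, almost all Tnnt2, lay between 14.6 and 110 CPM in LacZ CTRL, 0.326 and 1.67 CPM in LacZ IL-1β and 0.874 and 6.65 CPM in LacZ TNFα. The trend of log2 CPM with transcript GC content also differed, with slopes of 0.197 to 0.339 per 10 percentage points of GC in iCre cells with TGFβ, IL-1β or TNFα and of −0.248 to 0.00268 in the other 7 groups. With a correction for GC content and the replicate block, 8 of 8 genes differed between iCre and LacZ cells under TNFα, where 28.2% of all genes did, and 5 under IL-1β, where 22.8% did. The TNFα differences were then −4.91 for Cxcl10 (adjusted p = 0.000659), −1.65 for Cxcl16 (adjusted p = 3.55e-05) and 0.97 for Cxcl14 (adjusted p = 0.00406).

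Over all 40 libraries, the genes most like each chemokine in log2 CPM were sought among 13089 others with a mean of at least 1 CPM, as a description in which the points share groups and libraries. Cxcl9 was closest to Acod1, which makes itaconate (Pearson's r = 0.93), Znfx1 (0.89) and AW112010 (0.89). Cxcl10 was closest to the interferon-inducible GTPase gene Tgtp2 (0.93), Parp14 (0.93) and Nmi (0.92). Cxcl16 was closest to the lysosomal transporter gene Slc15a3 (0.96), the innate sensor Nod1 (0.95) and Gm16685 (0.94), and Cx3cl1 to Frrs1 (0.88), Tagln2 (0.86) and the TNF receptor family gene Cd40 (0.85). Cxcl12 was closest to the protease gene Adamts15 (0.85), Rnf144a (0.85) and B3gnt9 (0.83), and Cxcl14 to the alkaline phosphatase gene Alpl (0.84), Gfpt2 (0.83) and Smim3 (0.79). Among the 8 themselves, Cxcl9 and Cxcl10 were the closest pair (0.85), Cxcl16 was nearer to Cxcl9 (0.80) than to Cx3cl1 (0.38), and Cxcl14 was nearest to Cx3cl1 (0.56). For Cxcl12, r with the other 7 lay between −0.23 and 0.16.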

How the data were processed

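RNA-seq was made from 40 libraries in 10 groups of 4. The authors aligned reads to mm10 with STAR and deposited raw counts per gene from HTSeq 0.10.0, after quality control with FastQC 0.10.1 per the labels. The strand setting and annotation release are not given in the sources used here. Genes with at least 10 counts in total were kept (25210 of 55414), scaled by TMM and tested with edgeR's quasi-likelihood test (edgeR 4.0.16, limma 3.58.1, R 4.3.3), over the 8 libraries of each comparison or the 16 of each interaction, with Benjamini-Hochberg adjustment over all genes tested and a threshold of 0.05. SE stands for the absolute log2 fold change divided by the square root of the test's F statistic, a value derived from the test. The script was tested on simulated data. RPKM used merged exon lengths. Alternatives were DESeq2 1.42.0, other scalings and filters, a GC correction, a minimum fold, 1 fit of all libraries, each replicate number left out and the replicate number as a block. Same-numbered libraries deviated together over 13090 genes (mean correlation 0.546 over 180 pairs, 179 above 0.1, and at least 0.286 in every pair of groups compared), so the numbers were taken to pair the libraries on the evidence of the data. The members and gene lists were chosen with earlier results of these data known. Named were all members, receptors and proteases, the 3 genes with the largest called change per list for each cytokine in LacZ cells, and the 3 genes most correlated with each member. Genes were located in GRCm38, where 52133 identifiers matched. Figures were drawn with matplotlib 3.10.9. Coverage of single exons was not analysed here.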

Additional observations from a re-analysis of the deposited data

Results flagged for a closer look

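Dixon's test was run on 80 sets of 4 libraries (8 genes in 10 groups). Its chance rate of about 1 of 20 sets holds for continuous values and not for sets of mostly 0 counts, as in most Cxcl11 groups. In 7 sets 1 library lay far from the other 3. For Cxcl11 these were single counts in replicate 4, at 0.0299 CPM in LacZ bFGF, 0.0249 CPM in LacZ IL-1β, 0.0268 CPM in iCre IL-1β and 0.0324 CPM in iCre TNFα, where the other libraries had 0. Cxcl12 was at 5324 CPM in replicate 1 of LacZ IL-1β, with the next library at 4450 CPM. Cxcl16 was at 55.9 CPM in replicate 1 of iCre CTRL, with the next at 35.4 CPM. Cxcl9 was at 1.04 CPM in replicate 1 of iCre TNFα, with the next at 0.292 CPM.

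The effect of a ligand differed between iCre and LacZ cells by the interaction test (edgeR's quasi-likelihood test) for 7 pairs of gene and ligand, 2 lower and 0 higher with IL-1β, where 4.95% and 2.76% of all genes were, and 4 lower and 1 higher with TNFα, where 7.7% and 8.38% were. With IL-1β the difference of log2 effects was −1.34 for Cxcl16 and −0.91 for Cx3cl1. With TNFα it was −4.06 for Cxcl10, −3.24 for Cxcl13, 1.61 for Cxcl14, −1.24 for Cxcl16 and −1.27 for Cx3cl1. All of these calls but that of Cx3cl1 with TNFα were lost when 1 replicate number was left out, each without replicate 3 and without replicate 4 and some also without replicate 1 or 2, with adjusted p from 0.0519 to 0.194 where lost. That of Cx3cl1 with IL-1β was also lost in the fit of all 40 libraries (adjusted p = 0.182), and that of Cxcl13 with the GC correction (0.0599).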

How the results depend on the processing

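The replicate block added 25 calls among 144 tests of the 8 genes and removed 0, and leaving out replicate 3 or 4 removed 20 and 18. With the block the counts were 5 in place of 2 for bFGF in LacZ cells, 4 in place of 2 for bFGF in iCre cells, 5 in place of 2 for iCre against LacZ under IL-1β, 2, 3 and 1 in place of 0 under CTRL, bFGF and TGFβ, and 4 in place of 2 for the interaction with IL-1β. With the GC correction and the block they were 5, 4, 5, 3, 3 and 2 for the first 6 of these. DESeq2 gave 1 in place of 0 for iCre against LacZ under bFGF and 4 in place of 2 under IL-1β. The filterByExpr filter gave 3 in place of 5 for TNFα against IL-1β. For the interaction with IL-1β, the fit of all 40 libraries and the minimum log2 fold change of 1 each gave 1 in place of 2. Leaving out 1 replicate number gave 1 to 3 for bFGF and 2 to 5 for IL-1β in LacZ cells, 0 to 2 for bFGF and 3 to 5 for TNFα in iCre cells, 0 to 1 for iCre against LacZ under TGFβ and 1 to 3 under IL-1β, 2 to 6 for TNFα against IL-1β, and 0 to 2 and 1 to 7 for the interactions with IL-1β and TNFα. The cause of these changes was not tested. In the alternatives run, 0 called values changed direction. Of 80 group means, 2 moved beyond their SD with raw library sizes, Cxcl16 in LacZ CTRL (52.6 CPM) and Cx3cl1 in iCre CTRL (116 CPM). Depth limits Cxcl11 and Cxcl13 most, and no difference between groups with single counts was detectable.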
